A study of Mus musculus with 3 samples.

Results

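The genes described here are 10 genes used as markers of macrophages and other leukocytes: Tyrobp, Fcer1g, Csf1r, C1qa, C1qb, Adgre1, Ptprc, Lyz2, Cd68 and Laptm5. They were chosen by name, with earlier results of these data known. Their probes were those that the platform annotation assigns to a single gene symbol and that had a value on all 3 arrays. This gave 10 probes of 9 genes, 2 of them for Lyz2, out of 19660 probes and 14047 named genes measured in the series. No probe carried the symbol Csf1r in that annotation, so the receptor for the macrophage growth factor CSF1 was not analysed here.

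The study compared CD1 mouse embryos of 10.5 and 11.5 days post coitum on 3 two-colour oligonucleotide arrays. On each array, 10.5 dpc metanephric mesenchyme was channel 1 and 11.5 dpc metanephroi were channel 2. The tissue was normal, microdissected and pooled from both sexes, and amplified RNA was labelled through amino allyl groups. Arrays 1 and 2 had the dyes in the order red/green and array 3 in the order green/red, and no array carried a common reference. Nothing in the labels says whether the arrays came from separate dissections, so p-values measure only the spread between arrays, which may be technical. What was deposited is a log2 ratio per probe and array, and the labels leave unstated which channel is the numerator. Positive and negative ratios thus mark opposite tissues, but neither sign can be given to a stage. The ratios carry no expression level, so neither the labelled tissue nor the presence of macrophages could be checked against its markers. Array 3 stood apart: its Spearman correlation across probes was 0.211 with array 1 and 0.171 with array 2, against 0.466 between arrays 1 and 2, and its use as deposited rests on weak agreement.

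Macrophages of the early embryo arise from yolk sac progenitors, enter the organ rudiments and clear dying cells. They depend on the CSF1 receptor and on the transcription factor PU.1, encoded by Spi1, which binds a purine-rich core sequence in many myeloid promoters. Immune receptors without a signalling tail of their own pair with the small membrane adaptors DAP12, encoded by Tyrobp, and the Fc receptor gamma chain, encoded by Fcer1g, which pass the signal on through tyrosine motifs called ITAMs.

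Because a PU.1 sequence is a shared feature of myeloid promoters, the 250 bases before the RefSeq gene start (build GRCm38.p6) were searched for GAGGAA and AGGAAGT, overlapping parts of that core, on both strands. The search was chosen after some of the sequences had been seen. The RefSeq promoter table held 7 starts of 6 member genes, and Tyrobp, Adgre1 and C1qa had no entry. Below are promoters of Lyz2 and Fcer1g, whose ratios were positive on every array, and of C1qb and Laptm5, whose mean ratios were negative, so that the letters can be set beside the opposite signs. They run 5′ to 3′ toward the gene start, which follows the last base, with matches in capitals. A match on the opposite strand reads TTCCTC or ACTTCCT.
Lyz2 (chr10:117282273-117282522, minus strand): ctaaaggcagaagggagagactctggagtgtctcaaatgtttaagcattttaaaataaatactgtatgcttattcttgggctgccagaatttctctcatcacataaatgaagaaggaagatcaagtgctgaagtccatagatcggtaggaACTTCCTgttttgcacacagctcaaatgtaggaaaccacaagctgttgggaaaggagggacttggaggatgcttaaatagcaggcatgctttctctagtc
Fcer1g (chr1:171234350-171234599, minus strand): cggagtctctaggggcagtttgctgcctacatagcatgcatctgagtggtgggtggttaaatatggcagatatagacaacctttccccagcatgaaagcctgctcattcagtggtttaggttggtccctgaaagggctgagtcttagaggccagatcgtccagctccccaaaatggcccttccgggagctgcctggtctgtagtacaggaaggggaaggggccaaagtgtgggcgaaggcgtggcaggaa
C1qb (chr4:136886201-136886450, minus strand): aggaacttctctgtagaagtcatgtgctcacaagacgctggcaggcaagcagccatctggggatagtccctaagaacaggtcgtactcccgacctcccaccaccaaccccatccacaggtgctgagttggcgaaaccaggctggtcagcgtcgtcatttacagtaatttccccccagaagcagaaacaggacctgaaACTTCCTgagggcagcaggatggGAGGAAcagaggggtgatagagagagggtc
Laptm5 (chr4:130913066-130913315, plus strand): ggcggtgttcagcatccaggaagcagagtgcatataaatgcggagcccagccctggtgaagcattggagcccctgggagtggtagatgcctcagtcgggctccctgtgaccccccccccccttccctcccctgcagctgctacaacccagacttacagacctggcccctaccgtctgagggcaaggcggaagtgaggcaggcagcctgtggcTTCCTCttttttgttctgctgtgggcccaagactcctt
Lyz2 held 1 AGGAAGT match, from -100 to -94 relative to the start. C1qb held both motifs, ACTTCCT from -53 to -47 and GAGGAA from -30 to -25, and Laptm5 held TTCCTC from -38 to -33. Fcer1g held neither. Of the promoters not printed, the first Ptprc start held both motifs, the second Ptprc start AGGAAGT and Cd68 GAGGAA. The windows of the Ptprc starts overlap, and the match of the second start is also the match from -58 to -52 of the first. Among 32851 promoters of this length in the table, 23.3% held GAGGAA, 7.69% held AGGAAGT and 27.3% held at least 1 of them. Matches were thus found beside positive and negative mean ratios, though the intervals of the C1qb and Laptm5 ratios included 0. A match is a run of letters, not a measured binding site.

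Over the 3 arrays, the F4/80 gene Adgre1, both Lyz2 probes and the adaptor genes Fcer1g and Tyrobp had positive ratios on every array, with mean log2 ratios from 0.70 to 0.95. C1qa was smaller and also positive on every array, at 0.27 ± 0.10 (SD, n = 3). Ptprc and Cd68 lay near 0, and Laptm5 and C1qb had means of -0.44 and -0.58. By limma, 0 of the 10 probes passed an adjusted p of 0.05, as did 0.0% of all probes, and the smallest adjusted p among the members was 0.203. At an unadjusted p under 0.05 limma gave 5 of the 10 probes, all positive, and both Lyz2 probes were among them. At that limit 9.06% of all probes were positive and 8.39% negative, and 17.5% passed in either direction. With the probes of each gene averaged, 4 of the 9 genes passed it, and 2750 of all 14047 genes did. The members were chosen with earlier results of these data known, so these counts are a description only. A positive mean was found for 8 of the 10, against 50.3% of all probes. The 10 probes had a median of 0.49, and all 19660 probes had a median of 0.00397. The members' median was 0.27 with probes averaged per gene, which counts Lyz2 once, and 0.25 with the sign of array 3 turned. Whether these ratios reflect macrophages was not tested. Even if they did, a difference in macrophage number and one in RNA per macrophage could not be told apart in bulk tissue.

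**Figure D1:**
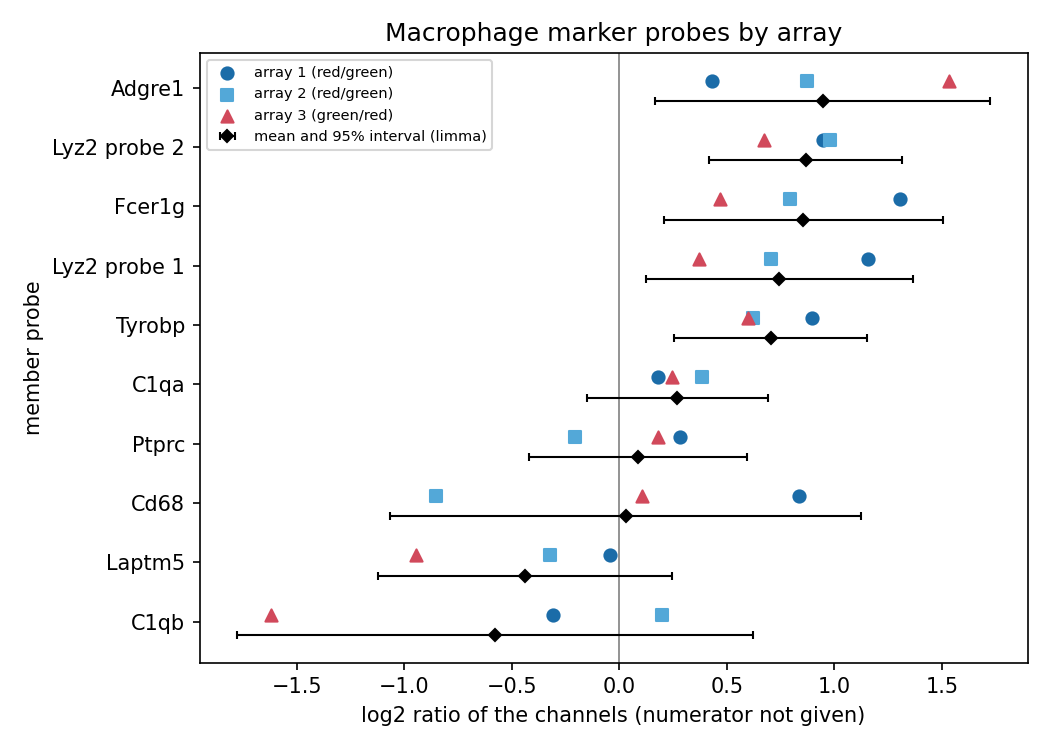
Log2 ratio of each member probe on each array (circles and squares for the arrays of red/green order, triangles for green/red), with the mean of the 3 arrays and its 95% interval by limma as a diamond and bar. The intervals of Adgre1, both Lyz2 probes, Fcer1g and Tyrobp lie above 0, while those of the other 5 probes include 0.

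Both ITAM adaptor genes were positive throughout. Tyrobp had log2 ratios of 0.90 on array 1, 0.62 on array 2 and 0.60 on array 3. All 3 arrays lay on the same side, with arrays 2 and 3 close together despite their opposite dye orders. Its mean was 0.70 ± 0.17 (SD, n = 3), a 1.63-fold difference, with a 95% interval from 0.26 to 1.15 and an adjusted p of 0.219 by limma.

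Fcer1g, the gamma chain shared by IgE and IgG receptors, had log2 ratios of 1.31, 0.79 and 0.47 on arrays 1 to 3. Array 1 was high and array 3 low, and none crossed 0. The mean was 0.86 ± 0.42 (SD, n = 3), a 1.81-fold difference, with an interval from 0.21 to 1.50 and an adjusted p of 0.230 by limma.

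Among surface markers, Adgre1 encodes F4/80, an adhesion receptor by which mouse macrophages are usually recognised. Its log2 ratios were 0.43, 0.87 and 1.53 on arrays 1 to 3. All were positive, and here array 3 was the highest, the reverse of Fcer1g. The mean of 0.95 ± 0.55 (SD, n = 3), a 1.93-fold difference, was the largest of the members, with an interval from 0.17 to 1.72 and an adjusted p of 0.246 by limma. Ptprc encodes CD45, the membrane phosphatase of nearly all leukocytes. It had 0.28, -0.21 and 0.18, so that array 2 lay on the other side of 0. The mean of 0.09 ± 0.26 (SD, n = 3) was smaller than its spread, and the interval ran from -0.42 to 0.59.

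The lysosomal members had means of both signs, and the differences between them were not tested. Lyz2 encodes lysozyme M, the bacterial wall enzyme of macrophages and granulocytes, and was measured by 2 probes, numbered here by their order in the array listing. Lyz2 probe 1 had log2 ratios of 1.16, 0.70 and 0.37, and Lyz2 probe 2 had 0.95, 0.98 and 0.68. Both probes were positive on all arrays and both were lowest on array 3. Their means were 0.74 ± 0.39 and 0.87 ± 0.17 (SD, n = 3), with adjusted p of 0.248 and 0.203 by limma, the latter the smallest of the members. Lyz1, the neighbouring and closely related lysozyme P gene, was looked at after the values were seen, and its probe had 0.13, -1.05 and -0.03, with a mean of -0.32 ± 0.64. The Lyz1 and Lyz2 transcripts are alike enough that hybridisation of one to the other's probe is possible, and how far it occurred was not tested.

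Cd68 encodes macrosialin, a glycoprotein of late endosomes and lysosomes. It had log2 ratios of 0.84, -0.85 and 0.10, so arrays 1 and 2, which share a dye order, gave opposite signs of almost equal size. Its mean was 0.03 ± 0.85 (SD, n = 3), with an interval from -1.07 to 1.12 that allows a change of either sign. Laptm5, a lysosomal membrane protein of leukocytes, had -0.05, -0.32 and -0.95. All 3 values were negative, but array 1 was close to 0 and array 3 carried most of the mean of -0.44 ± 0.46, whose interval ran from -1.12 to 0.25. Without array 3 the mean was -0.18, and without array 1 it was -0.63.

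The complement members had means of opposite sign, and both intervals included 0. C1qa and C1qb encode chains of C1q, the recognition unit of the classical complement pathway, which tissue macrophages make. In the RefSeq gene table they lie next to each other on chromosome 4 with only C1qc, the gene of the remaining chain, between them. C1qa had log2 ratios of 0.18, 0.38 and 0.25, the narrowest spread of the members, at a mean of 0.27 ± 0.10 (SD, n = 3) and an interval from -0.15 to 0.69. C1qb had -0.31, 0.20 and -1.62, which put array 2 above 0 and array 3 far below it, with a mean of -0.58 ± 0.94 (SD, n = 3) and an interval from -1.78 to 0.62. Without array 3 its mean was -0.0542, and without array 2 it was -0.96. C1qc, which is in the list of other complement genes and was singled out after its values were seen, had -0.69, -1.65 and 0.59, with a mean of -0.59 ± 1.13. The means of the 3 chains did not share a sign, but for C1qb and C1qc the spread between arrays was larger than the mean. Whether the chains differ in direction was not tested.

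Neighbours in the order of the means could not be told apart. Each probe's 95% interval overlapped that of the next lower probe, from Adgre1 at the top to C1qb at the bottom. Farther apart in that order, the intervals of Lyz2 probe 2, from 0.42 to 1.32, and of Tyrobp lay above the whole interval of Laptm5. Both probes were also higher than Laptm5 on all 3 arrays, as was every other member probe except Cd68 and C1qb. These differences were not tested. The SD over arrays had a median of 0.41 over the member probes and 0.37 over all probes.

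Ranks within an array do not move with its centring or scale, and they gave the same picture. Lyz2 probe 2 stood at percentile 91.9 of all ratios on array 1, at 89.9 on array 2 and at 87.4 on array 3. Tyrobp stood at 90.9, 79.7 and 85.6, and Fcer1g at 96.1, 85.4 and 81.1. Adgre1 went from 75.0 on array 1 to 96.1 on array 3. Cd68 covered nearly the whole scale, at 89.5 on array 1 and 12.1 on array 2, and C1qb was at 59.0 on array 2 and 2.12 on array 3.

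**Figure D2:**
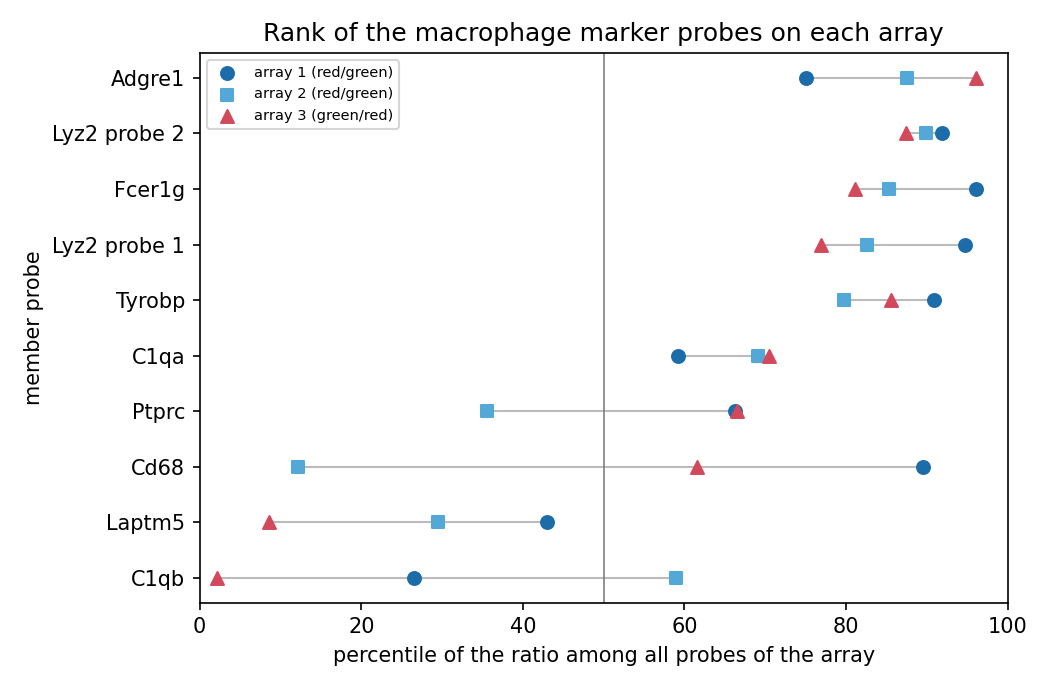
Percentile of each member probe's ratio among the 19660 probes of the same array, with a line joining its lowest and highest array and a vertical line at 50. Both Lyz2 probes, Fcer1g, Tyrobp and Adgre1 stay above the 74th percentile on every array, while Cd68 and C1qb span both sides of 50.

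The dye order was examined next, since the arrays differed in it. Of the 10 member probes, 7 had the same sign on all arrays, 6 positive and 1 negative, where 43.7% of all probes had 1 sign on all arrays, 22.4% positive and 21.3% negative. Arrays 1 and 2 had a common sign for 7 member probes, and array 3, with the dyes exchanged, had that sign in 7 of 7. Over all probes it had that sign in 62.1% of 13843. The agreement depends on taking array 3 as deposited. With its sign turned, 0 of the 10 probes kept 1 sign on all arrays (26.7% of all probes), which follows from the 7 of 7 above. In that setting 0 passed an unadjusted p under 0.05 by limma (5.89% of all probes). The mean of Adgre1 was then -0.0763, that of Fcer1g 0.54 and that of Tyrobp 0.31.

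A dye term weights both dye orders equally, so probes positive on every array must keep a positive mean. With the term, Adgre1 rose from 0.95 to 1.09. Lyz2 probe 1 fell from 0.74 to 0.65 and Lyz2 probe 2 from 0.87 to 0.82. Fcer1g fell from 0.86 to 0.76 and Tyrobp from 0.70 to 0.68. For C1qb the term moved the mean from -0.58 to -0.84, because the value of array 3 then counts as much as those of arrays 1 and 2 together. The count at an unadjusted p under 0.05 was 7 with the dye term, where 18.5% of all probes passed. Of the 7, 5 were positive, against 9.78% of all probes, and Laptm5 at -0.56 and C1qb at -0.84 were negative. In that fit the residual spread of a probe comes from arrays 1 and 2 only, so disagreement of array 3 does not enter it. Leaving out array 1 gave a count of 1 (7.0% of all probes), leaving out array 2 gave 2 (8.17%) and leaving out array 3 gave 4 (18.8%). Without moderation of the variances the count was 3 (15.4%).

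**Figure D3:**
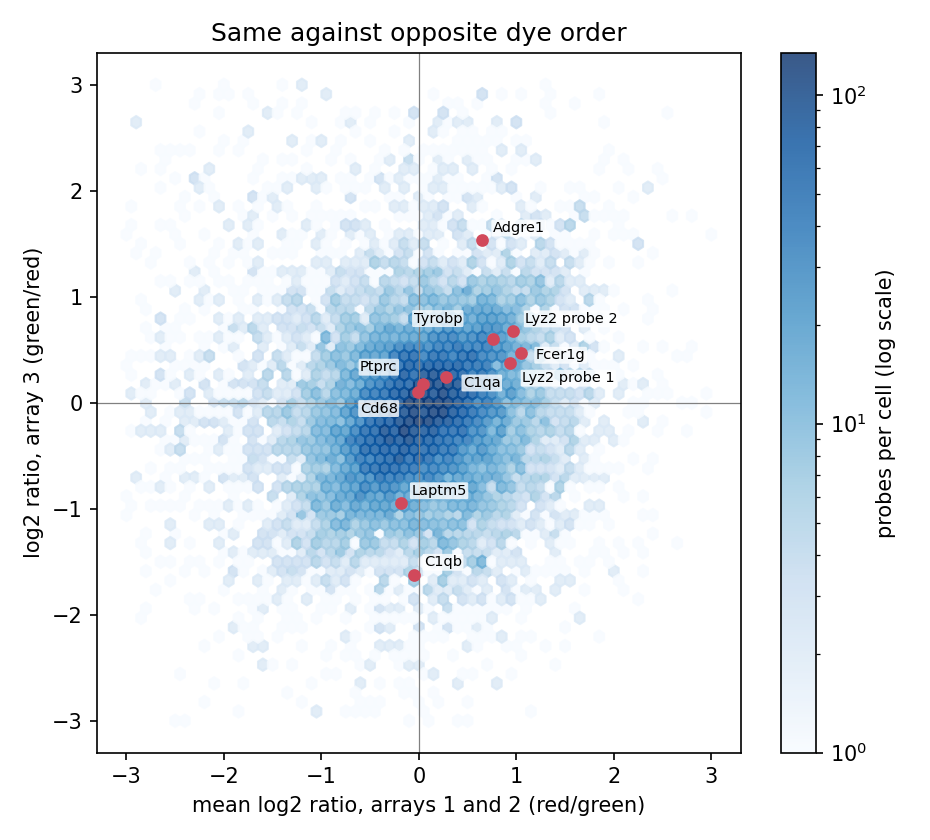
Mean log2 ratio of arrays 1 and 2 (red/green, horizontal) against the log2 ratio of array 3 (green/red, vertical), with all probes within 3 of 0 on both axes as shaded cells on a log scale, which leaves out 410, and the member probes as labelled points. Adgre1, Fcer1g, Tyrobp and the Lyz2 probes lie in the upper right quadrant and Laptm5 and C1qb in the lower left.

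The profiles of the members across arrays were compared by Euclidean distance over the 3 log2 ratios. Fcer1g and Lyz2 probe 1 were the closest of 45 pairs, at 0.198, closer than the 2 Lyz2 probes to each other, at 0.460. All 6 pairs among Tyrobp, Fcer1g and the Lyz2 probes were within 0.464, and the median over all pairs was 1.41. Adgre1 and C1qb were farthest apart, at 3.31. The non-member probes nearest to the median profile of the members were those of Sptssb at 0.0418, S100a1 at 0.0421, 4833413N01Rik at 0.0538, Mrpl35 at 0.0589 and Zfand4 at 0.0774. These distances rest on 3 values each and are a description only.

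The other lists of genes of these cells had smaller medians than the members, a difference that was not tested. In 7 further macrophage and leukocyte lists, joined without the members, 139 probes of 129 genes had a median of 0.02. Of these probes 12 were positive and 6 negative at an unadjusted p under 0.05 by limma, against 9.06% positive and 8.39% negative of all probes. Lysosomal genes gave 4 of the 6 negative probes. The 6 lists without them, a grouping chosen after the values were seen, had a median of 0.10 over 108 probes, with 11 positive and 2 negative at that limit. None of the probes in any list passed the adjusted limit. All names below are the genes of smallest p in each list, except where said.

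Among CSF1 receptor ligands and myeloid transcription factors, 19 probes of 17 genes had a median of 0.24, which ran from 0.03 to 0.42 over the other settings. At an unadjusted p under 0.05, 3 were positive and 0 negative. They were Csf2ra, a chain of the GM-CSF receptor, at 0.74 ± 0.28 (SD, n = 3), the transcription factor gene Maf at 0.62 ± 0.36 and the inhibitor of differentiation Id2 at 0.48 ± 0.08. Chosen after their values were seen, the CSF1 receptor ligand genes Csf1 and Il34 had 0.21 ± 0.60 and 0.41 ± 0.37, and Spi1, the PU.1 gene, had -0.19 ± 0.38. For Csf1 and Spi1 the spread exceeded the mean.

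ITAM adaptor partners, Fc receptors and kinases had a median of 0.11 over 23 probes, with 1 positive and 0 negative at that limit. That gene was Blnk, a linker of B cell receptor signalling, at 1.59 ± 0.80 (SD, n = 3). Trem2, a receptor that signals through DAP12, had 0.69 ± 0.54 by the probe of smallest p among 3, the others at 0.42 and 0.47, and Vav1 had 0.42 ± 0.28. Complement components and receptors had a median of 0.02 over 17 probes, which turned negative under other settings, down to -0.05. Cr1l, a membrane regulator of complement, had 0.67 ± 0.12 and Cd93 had 0.59 ± 0.15, and these were the genes at an unadjusted p under 0.05. C2 had 1.01 ± 0.77.

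Macrophage receptors and surface markers had a median of 0.16 over 18 probes, from 0.07 to 0.26 over the other settings, with 3 positive and 0 negative at an unadjusted p under 0.05. They were Axl, a receptor for dying cells, at 0.69 ± 0.37 (SD, n = 3), the macrophage pore protein gene Mpeg1 at 0.67 ± 0.36 and the folate receptor gene Folr2 at 0.56 ± 0.28. A positive mean was found for 11 of the 18 probes, against 50.3% of all probes. On all arrays 6 were positive and 2 negative, against 22.4% and 21.3% of all probes. The 2 negative genes, named after their values were seen, were Lyve1 at -0.23 ± 0.20 and Tlr2 at -0.24 ± 0.07. Pan-leukocyte genes had a median of 0.09 over 26 probes, which was 0.0126 without array 2, with 2 positive, Dock2 at 0.55 ± 0.02 and Gmfg at 0.52 ± 0.07, and 2 negative. Of the negative ones, Spn, the sialophorin CD43, had -0.97 ± 0.56 and was named after its value was seen.

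Lysosomal genes were on the other side of 0, with a median of -0.17 over 31 probes, from -0.19 to -0.06 over the other settings. At an unadjusted p under 0.05, 4 were negative and 1 positive. Ctsa, which encodes cathepsin A, had -0.73 ± 0.10 (SD, n = 3), the mannosidase gene Man2b1 had -0.55 ± 0.14, and Tpp1, a lysosomal peptidase gene, had 0.77 ± 0.10. The remaining negative genes, named after their values were seen, were Neu1, a sialidase held in a complex with cathepsin A, at -0.57 ± 0.16 and the glucuronidase gene Gusb at -0.51 ± 0.09. Most of these genes are expressed in all cells. The phagocyte oxidase list had 5 probes and a median of 0.01 that turned negative under other settings, and 0 probes passed an unadjusted p under 0.05. Its genes were Cyba at 0.52 ± 0.60, Ncf4 at 0.20 ± 0.23, Ncf1 at 0.01 ± 0.17, Rac1 at -0.11 ± 0.20 and Cybb at -0.62 ± 0.73.

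**Figure D4:**
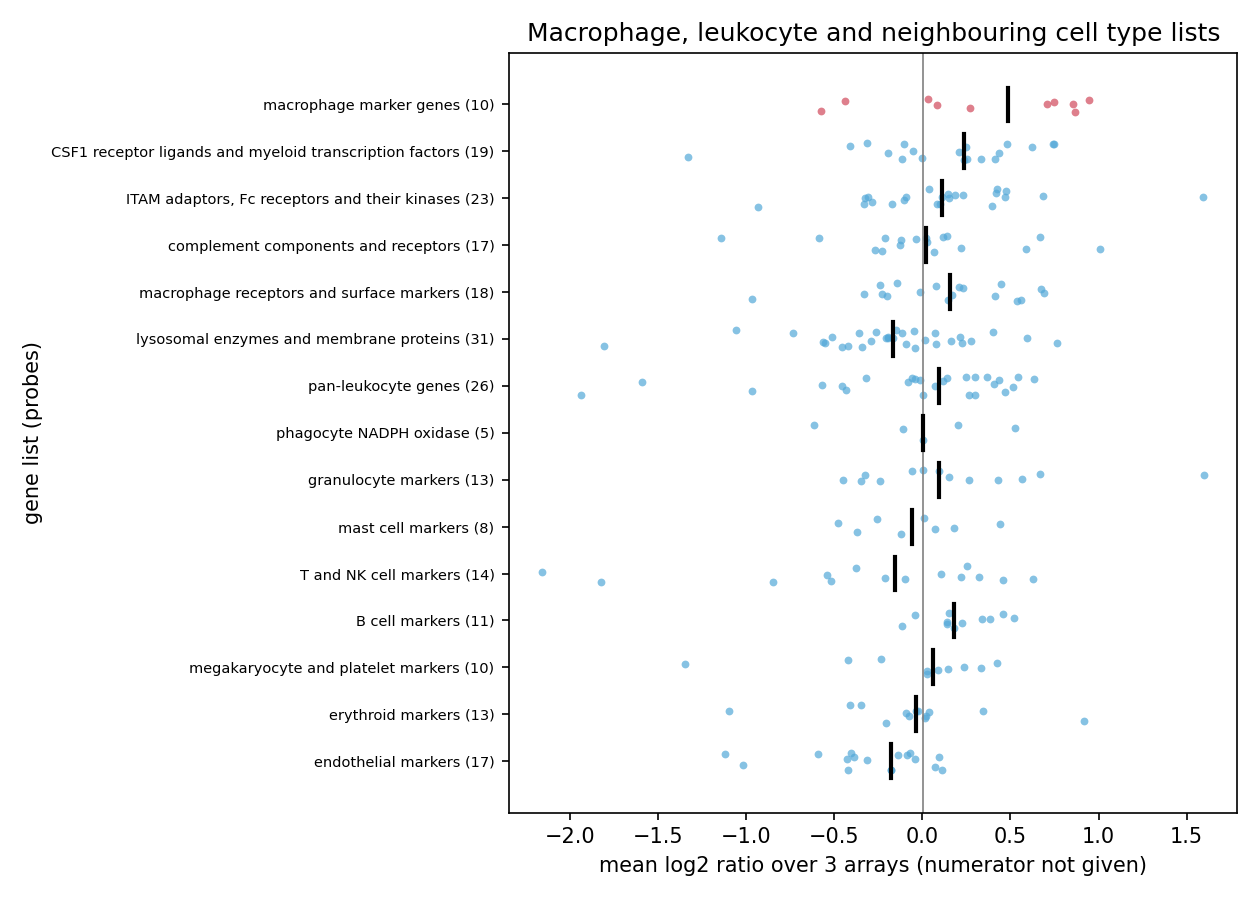
Mean log2 ratio over 3 arrays of each probe in the macrophage marker genes (top row, red) and in the other lists (blue), with the number of probes in brackets, a black bar at the median of each list and a grey line at the median of all probes. The members' median of 0.49 is the highest, although their probes run from -0.58 to 0.95.

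Markers of other blood and vessel cells gave these values beside the members, and their part in the result was not tested. Granulocytes also express Lyz2, and their 13 marker probes had a median of 0.09 that turned negative under other settings, with 1 positive at an unadjusted p under 0.05, S100a9 at 0.67 ± 0.20 (SD, n = 3). S100a8 had 0.57 ± 0.42 and Camp had 0.43 ± 0.40. B cell markers had a median of 0.18 over 11 probes and 0 at that limit, led by Blk at 0.52 ± 0.33, Igll1 at 0.46 ± 0.24 and Cd79b at 0.38 ± 0.13. Igll1 is given by the probe of smallest p among 2, and the other had a mean of -0.04. T and NK cell markers had a median of -0.15 over 14 probes, which was -0.03 without array 3, with 1 negative at that limit, Cd4 at -1.83 ± 1.40, and Cd8b1 had -0.38 ± 0.14 and Ncr1 0.63 ± 0.55. Mast cell markers had a median of -0.06 over 8 probes and 0 at that limit, with Cpa3 at 0.44 ± 0.17, Fcer1a at -0.48 ± 0.31 and Ms4a2 at -0.37 ± 0.30.

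Megakaryocyte markers had a median of 0.06 over 10 probes, with a sign that turned under other settings and 1 negative at an unadjusted p under 0.05, Vwf, also an endothelial gene, at -1.35 ± 0.71 (SD, n = 3) by the probe of smallest p among 2. The other Vwf probe had a mean of 0.03. Ppbp had 0.24 ± 0.13 and Itga2b had 0.33 ± 0.49. Erythroid markers had a median of -0.04 over 13 probes, with a sign that turned under other settings, and 1 negative at that limit, Klf1 at -1.10 ± 0.14. Rhag had 0.92 ± 0.98 and Epor had -0.35 ± 0.28. Endothelial markers had a median of -0.18 over 17 probes, from -0.28 to -0.13 over the other settings, with 0 positive and 4 negative, Cldn5 at -1.12 ± 0.31, Sox17 at -1.02 ± 0.31, Pecam1 at -0.59 ± 0.13 and, named after its value was seen, Plvap at -0.43 ± 0.03. By their medians, the 10 member probes and the endothelial markers thus lay on opposite sides of 0, a difference that was not tested. The 139 probes of the other macrophage and leukocyte lists had a median of 0.02, and the lysosomal list among them had -0.17.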

How the data were processed

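Spot images went through Imagene 5.5, per the labels, and the authors' log2 ratios were then normalized in R (print-tip lowess, then between arrays). The labels also record a lowess span of 20.0% and a floor of 10 for the control channel. The deposited log2 ratios were used as given, and the medians of gene probes were 0.05, 0.05 and -0.05 on arrays 1 to 3. The log2 scale was read from the lowest value, -6.64, which is log2 of 0.01. The numerator and the genome build are not given in the sources used here. Intensities were not analysed, which leaves signal over background unknown. Precision is limited by the number of arrays.

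The table's 22702 rows held 21918 gene probes, of which 16656 had 1 gene symbol, 137 several and 5125 none. Matching by Entrez identifier reached 15970 probes and changed 0 symbols. Control spots were left out. Array 3 was used as deposited because it correlated above 0 with the others (Pearson 0.0517 and 0.0148). The mean ratio of 19660 probes was tested against 0, two-sided, by limma 3.58.1 (R 4.3.3) without a block or covariate, and p-values were adjusted by Benjamini-Hochberg over all probes. On simulated data the fit was required only to return known mean log2 ratios. Plots used Matplotlib 3.10.9.

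The members and lists were chosen with earlier results of these data known. The rule for names takes every member, up to 3 genes of smallest unadjusted p per list (all where 5 or fewer were measured) and the 5 nearest probes by profile. A gene that the rule takes from the pan-leukocyte list is not reported here. Alternatives were array 3 turned, a dye term, centring on array medians, equal median absolute deviations, probes measured on 2 or more arrays, unmoderated and robust variances, array weights, limited extreme values, probes averaged per gene, and each array left out.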

Additional observations from a re-analysis of the deposited data

How the results depend on the processing

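At an adjusted p of 0.05, 0 probes and 0 member probes passed in all 13 alternatives run, which says little about stability with 3 arrays. With array 3 turned the other way, the members had a median of 0.25, 0 probes of one sign on all arrays, 0 positive on all arrays and 0 at an unadjusted p under 0.05, and all probes at that limit numbered 1158 in place of 3432. The means of Adgre1 (-0.0763), Ptprc (-0.0346), Cd68 (-0.0404), Laptm5 (0.19) and C1qb (0.50) then changed sign. With an array left out, probes at an unadjusted p numbered 1377 to 3690 in all and 1 to 4 among the members, Ptprc ran from -0.0129 to 0.23, Cd68 from -0.37 to 0.47, C1qb from -0.96 to -0.0542 and Laptm5 from -0.63 to -0.18. Unmoderated variances gave 3 members and 3037 probes in all at that limit, and averaging probes per gene, which counts Lyz2 once, gave a median of 0.27. The cause of the other shifts was not tested. Tyrobp, Fcer1g, C1qa and both Lyz2 probes stayed positive in all 13 alternatives, at 0.31 to 0.79 for Tyrobp. They were positive on all arrays, so alternatives that only reweight, rescale or drop arrays, or change the variances, could not turn their sign. Turning array 3 and centring on array medians could have done so. Signal over background is unknown and limits every value. Each array holds both tissues, so the test of the ratio already pairs them, and with a single group there was no replicate block to add.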
